A study of Mus musculus with 6 samples.

Results

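Cyclic AMP (cAMP) is made and destroyed inside the cell by separate enzyme families, and the genes of both, together with those that read the messenger, were followed in mouse bone marrow monocytes given granulocyte-macrophage colony-stimulating factor (GM-CSF). The module was defined by gene symbol alone: the numbered phosphodiesterases with a letter (Pde), the numbered adenylyl cyclases (Adcy), the regulatory and catalytic subunits of protein kinase A (PKA; Prkar and Prkac), the numbered Creb genes, and Crem, Crtc1, Crtc2, Crtc3, Rapgef3 and Rapgef4. It held 53 of the 24421 genes in the deposited count table. The module was chosen with earlier results of these data known. Of these 53, 32 had enough reads to be tested, 15 had reads but too few, and 6 had none.

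Adenylyl cyclases, driven by receptors coupled to the stimulatory G protein, turn ATP into cAMP, and phosphodiesterases hydrolyse it. The messenger frees the catalytic subunits of PKA from their regulatory subunits and also switches on the exchange factors EPAC1 and EPAC2. PKA phosphorylates the transcription factor CREB, while the CRTC coactivators enter the nucleus and bind CREB at cAMP response elements. In monocytes and macrophages, agents that raise cAMP, such as prostaglandin E2, adenosine and phosphodiesterase inhibitors, are known to dampen the release of inflammatory mediators.

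The GM-CSF group was 3 libraries of monocytes sorted from the marrow of B6 mice and held for 3 h with 5 ng of the cytokine, a growth factor that acts on myeloid cells (the volume is not stated). The control group was 3 libraries of the same kind of sorted B6 marrow monocytes without the cytokine. Their source label calls them freshly isolated while the treatment text describes medium for the same time, so GM-CSF and time in culture cannot be told apart if the controls were not cultured. No label gives the age of the mice or says that replicates came from different animals or cultures, and the p-values reflect library-to-library spread alone, possibly technical.

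Libraries held 16643228 to 21468929 gene reads with GM-CSF and 20782467 to 25232956 without. Levels are given as CPM, counts scaled to the library's total of gene reads. The 3 reads taken as the limit of an observed 0 equalled 0.140 to 0.180 CPM with GM-CSF and 0.119 to 0.144 CPM in controls. GM-CSF replicate 3 stood somewhat apart from its group: its log2 CPM correlated with replicates 1 and 2 at Pearson r = 0.975 and 0.977, and these correlated with each other at 0.988 (over genes, not independent replicates). No defining monocyte marker was at 0. The 10 monocyte markers summed to 28510 to 30870 CPM with GM-CSF and 60050 to 69000 CPM in controls, most of it the lysozyme gene Lyz2. They did not move as one: all 10 were tested, 2 rose and 5 fell. Mean levels of Cd14 and Spi1 were higher with GM-CSF, and those of Lyz2, Ccr2 and Cx3cr1 were lower. The 13 measured markers of neutrophils and their precursors summed to 11580 to 14650 CPM with GM-CSF and 18000 to 23490 CPM in controls, none of them at 0. Of these 13, all tested, 1 rose and 7 fell. Mean levels of Ngp and Camp were lower with GM-CSF, while those of Mpo, Elane and Ctsg were not. In bulk RNA, fewer cells of a type and less RNA per cell cannot be told apart. The part of these mixed changes in the results below was not tested. Markers of B cells (34.3 to 42.9 CPM with GM-CSF, 60 to 70.5 CPM in controls), dendritic cells (7.64 to 9.30 and 16.1 to 19.0 CPM), T and NK cells (1.502 to 2.28 and 1.75 to 2.22 CPM), basophils, mast cells and eosinophils (3.40 to 9.49 and 3.88 to 6.50 CPM, Epx at 0) and erythroid cells (0.326 to 0.477 and 1.16 to 1.59 CPM, with all 4 haemoglobin genes at 0) were far lower. Megakaryocyte and platelet markers summed to 2.04 to 2.98 CPM with GM-CSF and to 1.58, 1.74 and 24.5 CPM in control replicates 1, 2 and 3.

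GM-CSF libraries differed from controls at every step of the module, with paralogs of one family often going opposite ways. Of the 32 tested members, 26 passed edgeR's quasi-likelihood test (adjusted p below 0.05): 15 rose and 11 fell. The response of these cells was broad, and these counts are read against it: 64.0% of all 11731 tested genes changed, 32.8% higher and 31.2% lower. At least 2-fold changes that passed the test went up in 6 members and down in 8, and covered 11.9% (higher) and 12.6% (lower) of all tested genes. The median log2 fold change was 0.31 over the tested members and 0.01 over all tested genes. No GM-CSF library overlapped a control library in 26 of the 32, against 69.5% of all tested genes; 2 members that passed the test, Pde7a and Prkaca, overlapped, and Pde1b and Creb3l1 did not overlap without passing it.

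**Figure D1:**
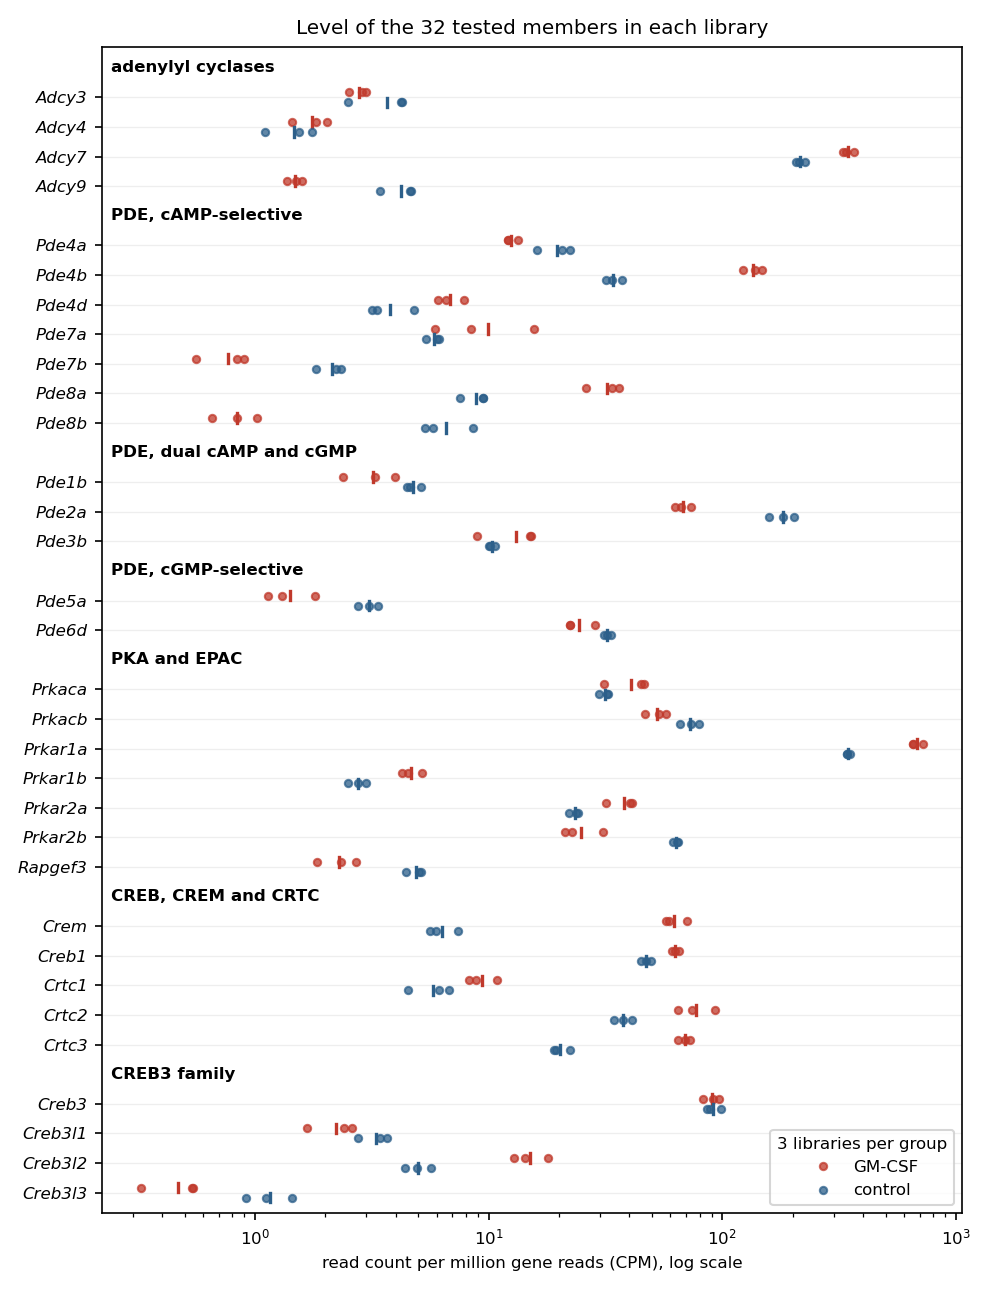
Level of each of the 32 tested members in CPM, on a log axis, with 1 point per library, a vertical tick at the mean of 3 libraries, and GM-CSF above control in each row. The GM-CSF points of Pde4b, Pde8a, Crem and Crtc3 lie wholly to the right of their controls, and those of Pde2a, Pde8b and Prkar2b wholly to the left.

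One cyclase made up nearly all adenylyl cyclase RNA, and it was higher with GM-CSF. Adcy7, a membrane cyclase typical of blood cells, stood at 329, 337 and 366 CPM in GM-CSF libraries and at 213, 226 and 208 CPM in controls. The groups did not overlap, and the log2 fold change was 0.68 ± 0.07 (SE; adjusted p = 1.19e-05). Per kilobase of annotated exon, Adcy7 took 97.8% ± 0.2 of summed cyclase RNA with GM-CSF and 94.9% ± 0.2 in controls (SD, n = 3 each), so the sum over all cyclases, 52.2 ± 2.9 CPM per kb with GM-CSF and 33.8 ± 1.6 CPM per kb in controls, moved almost wholly with it. Adcy9, a cyclase that is insensitive to forskolin, went the other way. It had 1.37, 1.502 and 1.58 CPM with GM-CSF and 4.67, 4.60 and 3.42 CPM in controls (log2 fold change -1.499 ± 0.26, adjusted p = 3.79e-04). Adcy3 (2.79 ± 0.25 CPM with GM-CSF, 3.67 ± 1.01 CPM in controls) and Adcy4 (1.76 ± 0.30 and 1.47 ± 0.33 CPM) overlapped between groups and did not pass the test (log2 fold changes -0.39 and 0.26). About 22.1% of the exon bases of Adcy3 are shared with the antisense gene Cenpo, and the strand setting of the counts is not given in the sources used here. Adcy6 had 7 reads in 3 GM-CSF libraries and 5 in 3 controls, Adcy5 had 3 and 2, Adcy10, the soluble cyclase, had 0 and 1, and Adcy1, Adcy2 and Adcy8, cyclases best known from the nervous system, had none.

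As counted, phosphodiesterase RNA changed in make-up more than in amount. In GM-CSF libraries the cAMP-specific enzymes Pde4b and Pde8a were about 4-fold higher (3.98-fold and 3.65-fold) while Pde2a, the dominant form in controls, was 2.66-fold lower. Of 24 phosphodiesterase genes, 12 were tested. Of these, 4 rose (Pde4b, Pde4d, Pde7a and Pde8a), 6 fell (Pde2a, Pde4a, Pde5a, Pde6d, Pde7b and Pde8b) and 2 did not pass the test. Of all tested genes, 32.8% rose and 31.2% fell.

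Pde4b encodes the cAMP-specific PDE4 form that is prominent in monocytes and is a target of rolipram-type inhibitors. It stood at 137, 122 and 147 CPM in GM-CSF libraries and at 33.8, 37.1 and 31.8 CPM in controls, without overlap (log2 fold change 1.99 ± 0.10, adjusted p = 3.60e-08). Pde8a, a cAMP-specific form that resists the general inhibitor IBMX, stood at 26.2, 36.1 and 33.8 CPM with GM-CSF and at 9.42, 7.53 and 9.48 CPM in controls (1.87 ± 0.15, adjusted p = 1.31e-06). Its paralog Pde8b showed the largest fall among the tested members, with 0.834, 1.02 and 0.652 CPM in GM-CSF libraries and 5.34, 8.56 and 5.77 CPM in controls (-2.97 ± 0.29, adjusted p = 6.15e-06). The 2 PDE8 genes therefore moved apart, the one with more reads upward and the one with fewer downward.

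Paralogs also went opposite ways within PDE4 and PDE7. Pde4d, another rolipram-sensitive form, rose (6.83 ± 0.93 CPM with GM-CSF, 3.77 ± 0.91 CPM in controls; 0.88 ± 0.22) whereas Pde4a fell (12.5 ± 0.7 and 19.7 ± 3.2 CPM; -0.65 ± 0.14). Pde4c had 0 reads with GM-CSF and 16 in controls, too few to be tested. If 3 reads over the GM-CSF group are taken as the limit of a count of 0, and the 16 as exact, it was at least 4.18-fold lower. Pde7b, at low counts, fell (0.894, 0.841 and 0.559 CPM with GM-CSF, 2.33, 2.22 and 1.83 CPM in controls; -1.48 ± 0.34, adjusted p = 0.00264). Pde7a, a high-affinity cAMP enzyme of leukocytes, had 5.90, 8.41 and 15.7 CPM with GM-CSF and 5.38, 5.98 and 6.16 CPM in controls (0.79 ± 0.30, adjusted p = 0.0357). The Pde7a groups overlapped and GM-CSF replicate 3 was the high one: without it the log2 fold change was 0.31 and the call was lost, as it was without control replicate 1 (0.74), 2 (0.81) or 3 (0.82), with limma-voom (0.72) and with upper quartile scaling (0.67).

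Among forms that hydrolyse both cAMP and cGMP, Pde2a, which cGMP stimulates, had 66.7, 73.5 and 62.9 CPM with GM-CSF and 159, 182 and 203 CPM in controls (-1.41 ± 0.10, adjusted p = 3.19e-07). The highest GM-CSF library lay far below the lowest control. In the GENCODE M21 annotation 64.3% of its exon bases are shared with the same-strand gene Gm45837, and whether the annotation behind the counts held that gene is not given in the sources used here. Pde3b, the cGMP-inhibited form, did not pass the test (13.1 ± 3.6 CPM with GM-CSF, 10.3 ± 0.3 CPM in controls; 0.35 ± 0.19, adjusted p = 0.127), but was called at 0.55 without GM-CSF replicate 1, which at 8.94 CPM lay below the other 2 GM-CSF libraries (15.02 and 15.2 CPM). Pde1b, a calmodulin-stimulated form, lay just outside the threshold (3.21 ± 0.80 CPM with GM-CSF, 4.73 ± 0.34 CPM in controls; -0.56 ± 0.23, adjusted p = 0.0523). It was called lower without GM-CSF replicate 2 (-0.73), with RLE or upper quartile scaling (-0.57 and -0.68), with a filter of 1 CPM (-0.57) and with limma-voom (-0.61). Pde10a had 0, 2 and 0 reads with GM-CSF and 5, 23 and 18 in controls, a GM-CSF to control ratio of 0.0555 (95% exact counting interval 0.00652 to 0.212). Pde1a (3 reads with GM-CSF, 0 in controls) and Pde1c (2 and 1) were near silent, and Pde3a and Pde11a had no reads. Such intervals include no error beyond that of counting, and the limits set for a count of 0 take the other group's count as exact.

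Of the cGMP group, Pde5a, the sildenafil target, fell (1.13, 1.80 and 1.30 CPM with GM-CSF, 3.38, 2.77 and 3.08 CPM in controls; -1.12 ± 0.28, adjusted p = 0.00467). Pde6d, whose product carries prenylated proteins and has no catalytic activity of its own, fell slightly (22.2, 28.5 and 22.4 CPM with GM-CSF, 32.01, 31.0 and 33.4 CPM in controls; -0.39 ± 0.12, adjusted p = 0.0118). The photoreceptor genes were near silent, with 13 reads with GM-CSF and 9 in controls for Pde6b, 6 and 0 for Pde6g, 1 and 1 for Pde6h, 0 and 1 for Pde6c, and none for Pde6a; Pde9a had 0 and 2.

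Set side by side per kilobase of exon, the 16 genes for enzymes that act on cAMP summed to 35.0, 38.4 and 39.1 CPM per kb in GM-CSF libraries and to 37.5, 42.8 and 45.5 CPM per kb in controls, ranges that overlap. Within that sum the share of Pde2a was 29.4% ± 2.8 with GM-CSF and 70.2% ± 2.0 in controls (SD, n = 3 each). Pde4b took 34.3% ± 3.7 with GM-CSF and 7.79% ± 1.03 in controls, and Pde8a 21.0% ± 2.4 and 5.23% ± 0.93. Pde2a took 68.9% to 72.5% in each control, more than all other genes together, and 26.2% to 31.1% in each GM-CSF library, where Pde4b took 30.1% to 37.1% and Pde8a 18.5% to 23.2%. The shares depend on the exon length used, here all annotated exons: with the longest annotated transcript, an alternative added after seeing the data, Pde2a took 24.8% with GM-CSF and 67.0% in controls, Pde4b 48.5% and 12.5%, and Pde8a 12.9% and 3.64%. On both lengths the highest mean share was that of Pde4b with GM-CSF and that of Pde2a in controls, although in GM-CSF replicate 2 Pde2a (31.1%) stood just above Pde4b (30.1%) on all annotated exons. The sums and the Pde2a shares would be too low if reads on the 64.3% of Pde2a exon bases shared with Gm45837 were lost. Pde2a could then rank above Pde4b with GM-CSF, which was not tested.

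**Figure D2:**
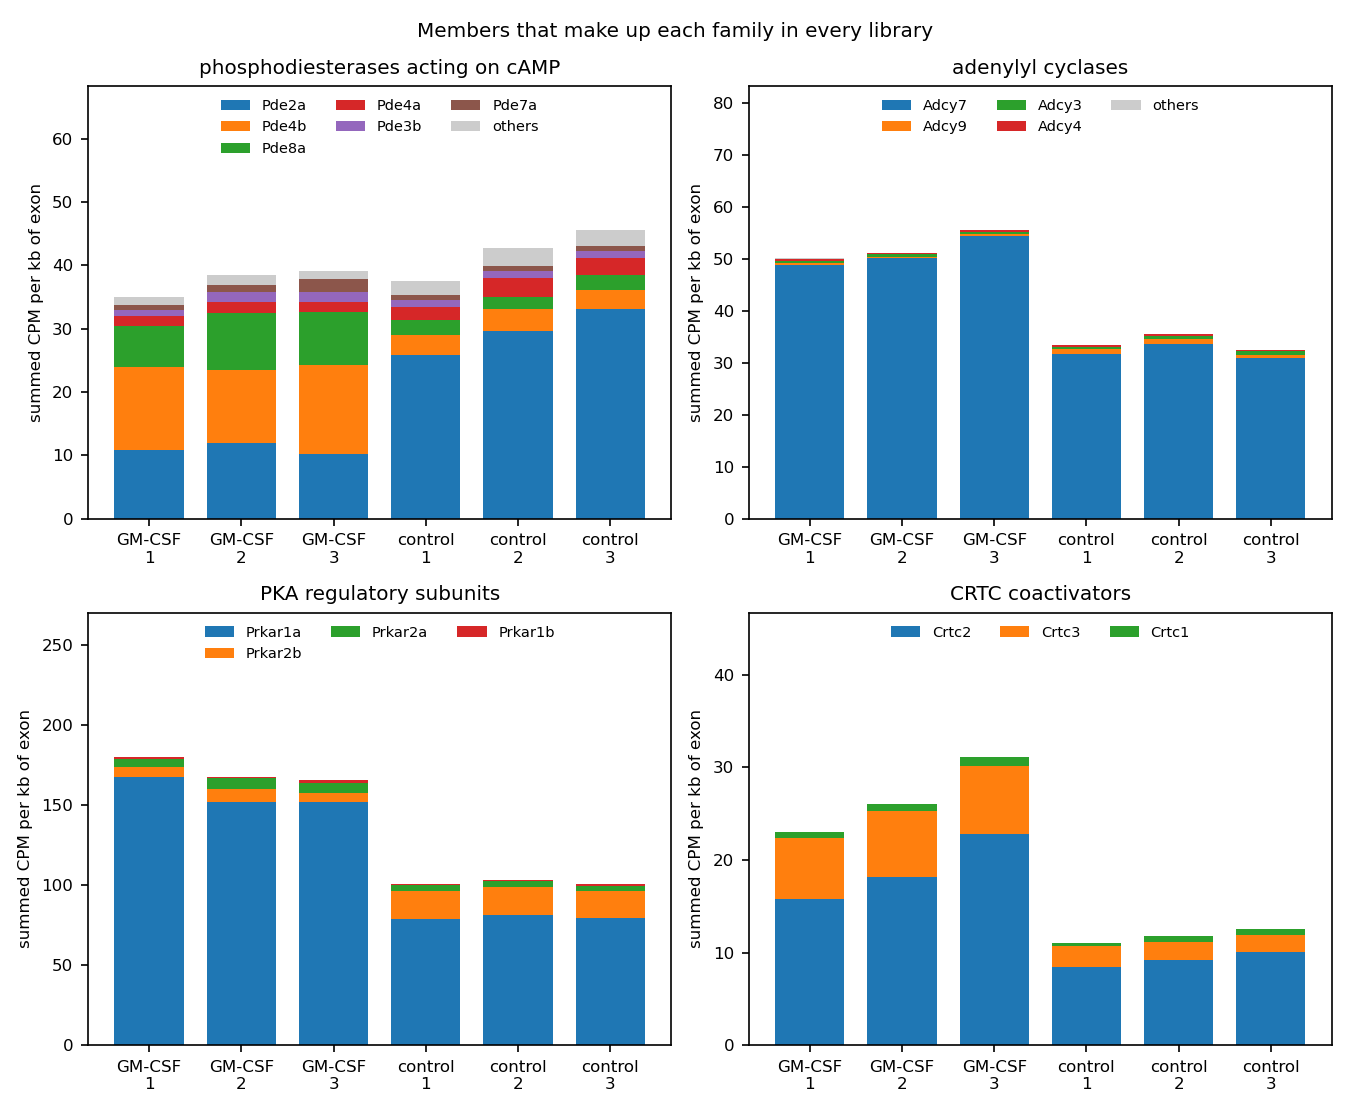
Summed CPM per kilobase of annotated exon in each library (3 GM-CSF, then 3 control), stacked by gene, for phosphodiesterases acting on cAMP, adenylyl cyclases, PKA regulatory subunits and CRTC coactivators. The phosphodiesterase bars are of similar height, 35.0 to 39.1 CPM per kb with GM-CSF and 37.5 to 45.5 CPM per kb in controls, but Pde2a fills 29.4% of them on average with GM-CSF and 70.2% in controls.

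The promoter windows of Pde4b and Pde8a are shown because these were the most raised phosphodiesterases and because each holds the short form of the cAMP response element, the motif that CREB factors bind; they were chosen after the values were seen. Windows run from 250 bases before to 50 after a start site in the RefSeq table for GRCm38.p6, which had at least 1 window for 41 of the 53 members. The full element (TGACGTCA) and the short one (TGACG, or CGTCA on the other strand, which both lie within the full element) were searched. The short element was in 31.1% of 11442 windows of tested genes and the full one in 3.10%, and in 17 and 2 of the 59 windows of tested members. Pde4b has 4 windows, and the one printed, chr4:102421305-102421604 on the plus strand, is the only one of them with a short element. The Pde8a window is chr7:81213015-81213314, plus strand. Capitals mark the element in each. The short element was also in a window of Pde2a, of Pde4a and of Pde8b, phosphodiesterases that fell. A match describes the letters only.
Pde4b: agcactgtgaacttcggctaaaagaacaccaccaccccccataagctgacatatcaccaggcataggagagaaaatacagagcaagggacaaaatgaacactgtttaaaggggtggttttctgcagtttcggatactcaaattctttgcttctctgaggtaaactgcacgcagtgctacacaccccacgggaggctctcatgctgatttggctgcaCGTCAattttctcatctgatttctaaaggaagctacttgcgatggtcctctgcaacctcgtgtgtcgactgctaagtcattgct
Pde8a: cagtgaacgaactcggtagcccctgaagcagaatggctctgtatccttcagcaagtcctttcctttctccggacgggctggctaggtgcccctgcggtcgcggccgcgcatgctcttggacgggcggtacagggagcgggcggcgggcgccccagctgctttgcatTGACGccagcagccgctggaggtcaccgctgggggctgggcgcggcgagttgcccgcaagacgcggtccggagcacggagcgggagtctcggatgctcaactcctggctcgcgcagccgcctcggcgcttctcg

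Among the genes that read the cAMP signal, the commonest PKA regulatory subunit, Prkar1a, was higher with GM-CSF and Prkar2b lower, and the catalytic subunits differed by smaller amounts in opposite directions. All 7 tested genes for PKA subunits and EPAC passed the test, 4 higher and 3 lower, where 64.0% of all tested genes passed it. Prkar1a, the RIα regulatory subunit of type I PKA, stood at 725, 656 and 656 CPM in GM-CSF libraries and at 340, 350 and 342 CPM in controls (log2 fold change 0.99 ± 0.07, adjusted p = 6.49e-07). It was the most abundant tested member per kilobase in both groups. Prkar2b, the RIIβ subunit of type II PKA, had 22.8, 30.8 and 21.2 CPM with GM-CSF and 64.4, 63.8 and 61.8 CPM in controls (-1.34 ± 0.13, adjusted p = 4.64e-06). Prkar2a (37.8 ± 5.2 CPM with GM-CSF, 23.4 ± 1.0 CPM in controls; 0.70 ± 0.12) and the scarce Prkar1b (4.66 ± 0.47 and 2.75 ± 0.24 CPM; 0.77 ± 0.21) also rose.

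Of the catalytic subunits, Prkacb (Cβ) fell (46.8, 53.5 and 57.7 CPM with GM-CSF, 65.9, 79.7 and 73.3 CPM in controls; -0.46 ± 0.10, adjusted p = 0.00197). Prkaca (Cα) had 31.2, 46.3 and 44.8 CPM with GM-CSF and 29.6, 32.1 and 32.3 CPM in controls, with overlap (0.38 ± 0.14, adjusted p = 0.0282). Its call was lost without GM-CSF replicate 2 (0.30) or 3 (0.32), without control replicate 1 (0.35), 2 (0.40) or 3 (0.39), and with upper quartile scaling (0.27). Per kilobase, regulatory subunits summed to 171 ± 8.0 CPM per kb with GM-CSF and 101 ± 1.4 CPM per kb in controls, and catalytic subunits to 22.4 ± 3.9 and 20.9 ± 1.3 CPM per kb. The ratio of regulatory RNA to that of Prkaca and Prkacb was 10.1, 6.79 and 6.73 in GM-CSF libraries. In controls it was 5.19, 4.68 and 4.71, without overlap. The kinase gene Prkx, set among other pathway genes and not a member, is left out of this ratio. It had 41.7 ± 3.2 CPM per kb with GM-CSF and 22.5 ± 0.5 CPM per kb in controls (log2 fold change 0.895 ± 0.079). The ratio therefore holds for Prkaca and Prkacb alone. Prkar1a held 91.8% ± 1.3 of regulatory subunit RNA with GM-CSF and 78.6% ± 0.4 in controls, and Prkar2b 4.01% ± 0.89 and 17.1% ± 0.4.

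The tested members Crem, Crtc2, Creb3l1, Pde3b and Pde7a had no window and could not be searched. Of the other tested members, only Prkar1a had windows that held the full cAMP response element. Its window is shown for that reason, chosen after the values were seen. The element lies in 2 of its 6 windows, which overlap and hold the same copy. The window at chr11:109650699-109650998 (plus strand, GRCm38.p6) has it 49 bases before the start site, in capitals, along with a separate short element 187 bases before.
Prkar1a: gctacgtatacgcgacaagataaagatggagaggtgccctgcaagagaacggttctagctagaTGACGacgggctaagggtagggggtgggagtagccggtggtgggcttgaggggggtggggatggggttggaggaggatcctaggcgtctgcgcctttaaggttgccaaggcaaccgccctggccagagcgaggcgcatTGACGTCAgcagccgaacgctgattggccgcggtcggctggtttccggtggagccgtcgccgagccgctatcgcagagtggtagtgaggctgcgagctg

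The exchange factors were scarce. Rapgef3 (EPAC1), which activates the small GTPase RAP1 when it binds cAMP, had 1.85, 2.34 and 2.70 CPM with GM-CSF and 4.42, 5.03 and 5.15 CPM in controls (-1.07 ± 0.23, adjusted p = 0.00169). Rapgef4 (EPAC2) had 11 reads with GM-CSF and 35 in controls and was not tested.

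**Figure D3:**
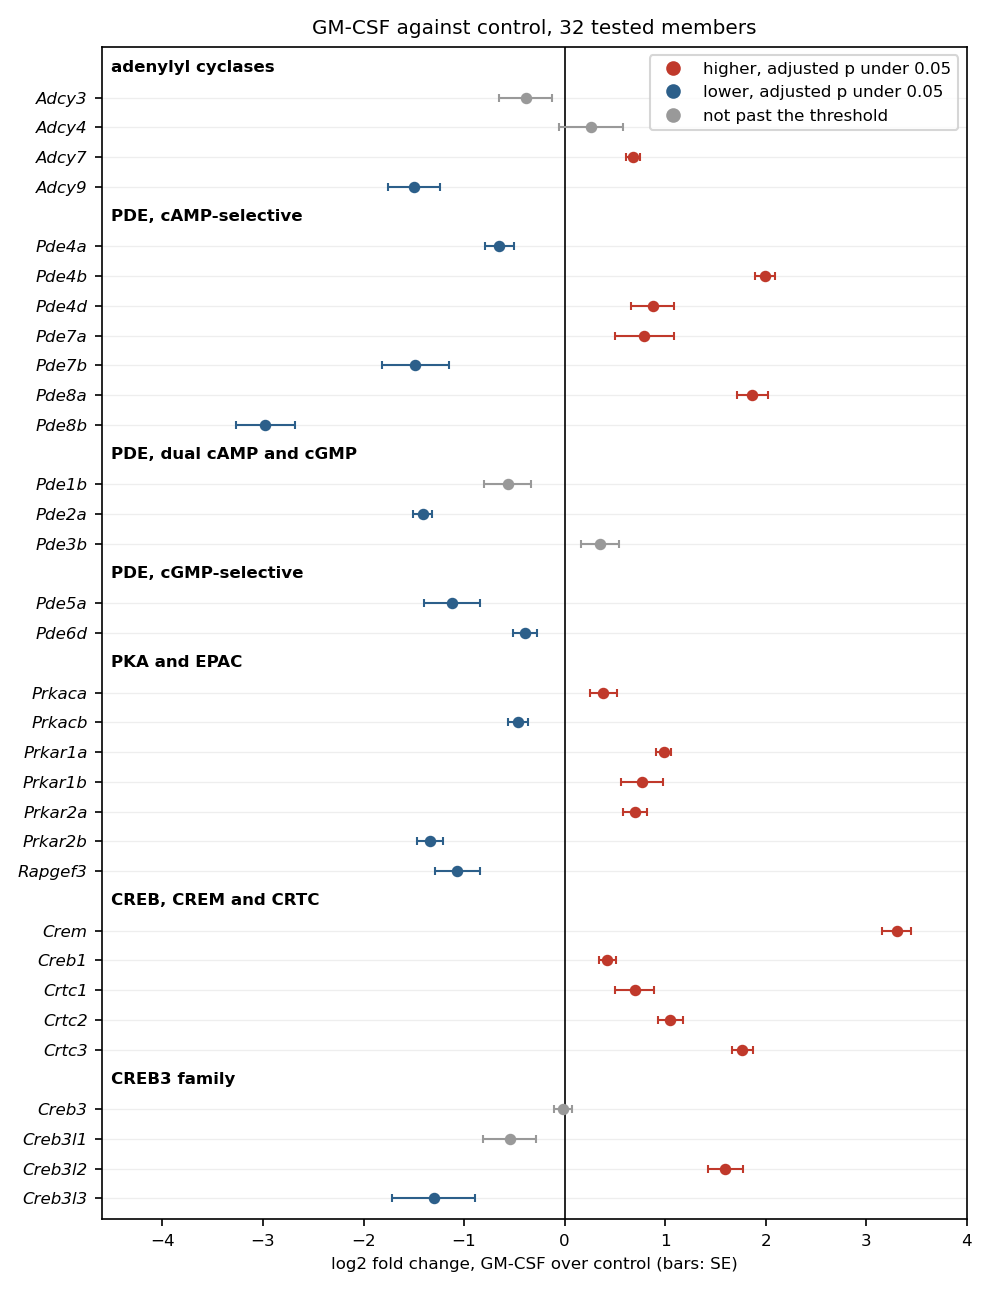
Log2 fold change of GM-CSF over control for each of the 32 tested members, ordered by role, with SE as bars and the colour giving the outcome of the test. All 5 tested genes of the CREB, CREM and CRTC group lie to the right of 0, while the phosphodiesterases range from -2.97 (Pde8b) to 1.99 (Pde4b).

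The CREB, CREM and CRTC members went one way: all 5 tested of the 6 genes rose with GM-CSF, where 32.8% of all tested genes did. Their median log2 fold change was 1.05. Crem showed the largest rise among the tested members. Its gene encodes activators and repressors, including the inducible repressor ICER that starts from an internal promoter, and counts per gene do not separate them. Crem stood at 70.4, 57.2 and 59.2 CPM in GM-CSF libraries and at 7.42, 5.59 and 5.97 CPM in controls, a 9.88-fold difference without overlap (log2 fold change 3.30 ± 0.14, adjusted p = 1.36e-08). Creb1, which encodes CREB itself, was only slightly higher (65.6, 62.6 and 60.9 CPM with GM-CSF, 49.6, 47.0 and 44.8 CPM in controls; 0.43 ± 0.09, adjusted p = 0.00119). Per kilobase, Crem was thus below Creb1 in controls (1.07 against 3.43 CPM per kb) and above it with GM-CSF (10.6 against 4.59 CPM per kb). Creb5 had 18 reads with GM-CSF and 2 in controls, too few to be tested, a GM-CSF to control ratio of 11.5 (95% exact counting interval 2.75 to 102).

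The CRTC coactivators, which salt-inducible kinases hold in the cytoplasm until cAMP or calcium signals arrive, were all higher. Crtc3 stood at 64.4, 69.6 and 73.0 CPM with GM-CSF and at 22.4, 19.4 and 19.1 CPM in controls (1.77 ± 0.10, adjusted p = 9.74e-08). Crtc2, the most abundant of the 3 per kilobase in both groups, had 64.7, 74.6 and 93.3 CPM with GM-CSF and 34.3, 37.6 and 41.0 CPM in controls (1.05 ± 0.13, adjusted p = 2.92e-05). Crtc1, best known from neurons, was scarcer (9.34 ± 1.38 and 5.80 ± 1.17 CPM; 0.70 ± 0.19). None of the 3 overlapped between groups. Summed per kilobase they came to 26.8 ± 4.1 CPM per kb with GM-CSF and 11.8 ± 0.7 CPM per kb in controls.

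The CREB3 family shares the CREB name but not its control by PKA: its members are held in membranes of the secretory pathway and released by proteolysis. They did not move as one. Creb3l2, which takes part in secretory pathway expansion, rose (12.8, 14.3 and 18.03 CPM with GM-CSF, 4.38, 4.95 and 5.68 CPM in controls; 1.601 ± 0.17, adjusted p = 1.30e-05). Creb3, the most abundant of the family, overlapped between groups (90.9, 82.8 and 96.4 CPM with GM-CSF, 99.2, 86.2 and 88.6 CPM in controls; -0.01 ± 0.09, adjusted p = 0.901), and 20.8% of its exon bases are shared with the antisense genes Gba2 and Tln1. Creb3l1 did not pass the test (2.23 ± 0.49 and 3.28 ± 0.46 CPM; -0.54 ± 0.26, adjusted p = 0.0934). Creb3l3, a liver factor, fell, with 0.536, 0.541 and 0.326 CPM with GM-CSF and 0.917, 1.11 and 1.44 CPM in controls (-1.30 ± 0.41, adjusted p = 0.0173); the call was lost without control replicate 3 (-1.13), and it alone of the tested members had enough reads in all 3 libraries of 1 group only, the controls. Creb3l4 had 18 reads with GM-CSF and 15 in controls.

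Other genes of the pathway, grouped by role, are set beside the members. Of these 106 genes 69 were tested, 35 rose and 16 fell, with a median log2 fold change of 0.38. Of the 35, 4 (Htr7, Popdc2, Nr4a3 and Gem) had enough reads in all 3 libraries of the GM-CSF group only, so they could enter the test only by being high there. Among 12 tested genes for receptors coupled to the stimulatory G protein and an accessory protein of such a receptor (Ramp1), 4 rose and 4 fell. These shares were close to those of all tested genes (32.8% and 31.2%), and Htr7 was one of the 4 that rose. Adora2b, a low-affinity adenosine receptor, had 500 ± 26 CPM with GM-CSF and 64.5 ± 5.2 CPM in controls (2.96 ± 0.09, adjusted p = 8.91e-10), and the serotonin receptor gene Htr7 had 995 reads with GM-CSF and 0 in controls, at least 423-fold higher against 3 reads over the control group. Of the prostaglandin E2 receptors, Ptger2 rose (52.0 ± 2.9 and 24.1 ± 0.4 CPM; 1.12 ± 0.09) and Ptger4 did not pass the test (64.0 ± 2.4 and 63.8 ± 13.2 CPM; 0.01 ± 0.13, a sign that turned in 5 alternatives). Adora2a (1.19), another adenosine receptor, also rose, and Hrh2 (-1.52), Ramp1 (-0.83), Gpr65 (-0.75) and Calcrl (-0.49) fell.

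Downstream of the receptors, Gnas, which encodes the stimulatory alpha subunit, was at 620 ± 33 CPM with GM-CSF and 639 ± 37 CPM in controls and did not pass the test (-0.04 ± 0.07). Its olfactory relative Gnal fell (4.42 ± 0.68 and 13.2 ± 0.6 CPM; -1.56 ± 0.17), as did the inhibitory subunit gene Gnai2 (-0.26), while Gnai3 rose (0.37). Against 32.8% higher and 31.2% lower among all tested genes, 7 of 14 tested PKA inhibitors and anchoring proteins rose and 3 fell. The 2 inhibitor genes among them moved by equal amounts in opposite directions, Pkib by 1.14 and Pkig by -1.14, and the anchors Ezr (1.44 ± 0.09) and Akap1 (1.32 ± 0.16) rose most. Abcc4, an exporter of cyclic nucleotides, fell (34.3 ± 3.6 and 83.6 ± 0.3 CPM; -1.28 ± 0.09). Popdc2, a cAMP-binding membrane protein known from muscle, rose, with 239 reads with GM-CSF and 7 in controls (5.33 ± 0.56, and 6.43 without control replicate 1). Of the kinases that hold CRTCs in the cytoplasm, Sik3 rose (1.12), and Sik1 (-0.25) and Sik2 (0.26) did not pass the test.

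Of 6 CREB partners, Crebzf (0.98 ± 0.20), Atf1 (0.73 ± 0.09) and Crebbp (0.45 ± 0.10) rose and Crebrf (-0.70) fell. Ep300 (-0.14), the paralog of Crebbp, and Crebl2 (-0.46) did not pass the test. Among 21 tested genes known as CREB targets in various cell types, 15 rose and 4 fell, with a median of 1.11, against 32.8% and 31.2% of all tested genes with a median of 0.01. The 15 and the median include Nr4a3 and Gem, which were tested through the GM-CSF group only. Several of them, including Egr2, Fos and Cebpb, also answer to other pathways, and the list was drawn up with earlier results of these data known. The largest rises were in Egr2 (447 ± 13 CPM with GM-CSF, 0.743 ± 0.231 CPM in controls) and Nr4a3 (1277 reads with GM-CSF and 3 in controls, a ratio of 543, 95% exact counting interval 185 to 2636). All 3 control reads of Nr4a3 were in replicate 2: its fitted log2 fold change was 8.91, and 11.86 without that library. The targets that fell were Rgs2 (-2.78), Gadd45a (-1.45), Fos (-1.35) and Dio2 (-1.15).

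**Figure D4:**
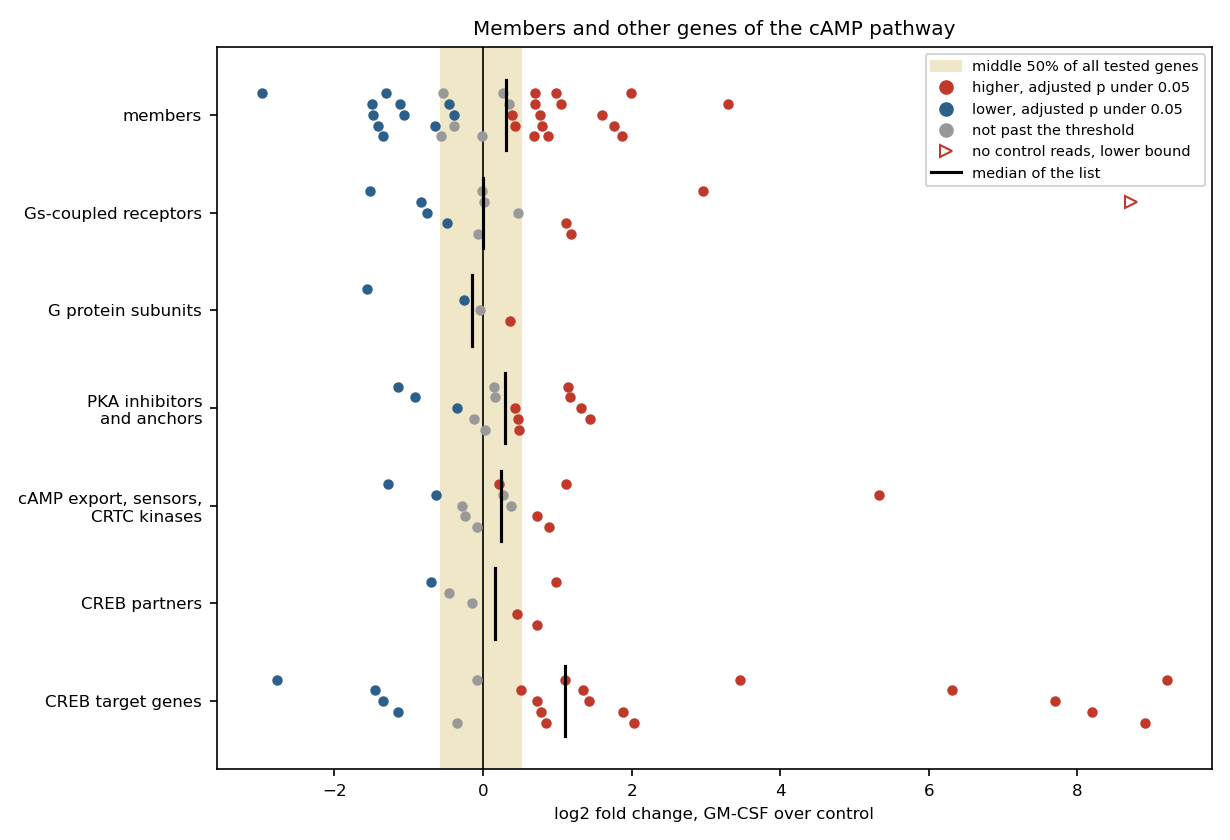
Log2 fold change of GM-CSF over control for the 32 tested members and for 69 other tested genes of the pathway by role, with 1 point per gene, a black line at the median of each list and a band for the middle 50% of all tested genes (-0.56 to 0.52). The open triangle is Htr7, drawn at its lower bound, and the medians run from -0.15 for G protein subunits to 1.11 for CREB target genes.

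On GRCm38, GENCODE M21 places the main members, all protein-coding, as follows. Adcy7 is on chromosome 8 at 88272403 to 88329962, Pde4b on chromosome 4 at 102087543 to 102607259 and Pde8a on chromosome 7 at 81213596 to 81334533. Pde2a is also on chromosome 7, at 101421691 to 101512827, and Pde8b is on chromosome 13 at 95024454 to 95250336. Adcy9 is on chromosome 16 at 4287529 to 4420498 and Creb3l2 on chromosome 6 at 37327255 to 37442146. Crtc2 is on chromosome 3 at 90254163 to 90264125. Prkar1a is on chromosome 11 at 109649405 to 109669656, Prkar2b on chromosome 12 at 31958476 to 32061296 and Crtc3 on chromosome 7 at 80586627 to 80688877.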

How the data were processed

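Poly(A) RNA was sequenced as paired reads in 6 libraries. The authors deposited raw counts by gene symbol. The submitters' processing notes list mm10 as build, and edgeR, HTSeq 0.6.1p1, STAR 2.5.2a and Trim Galore 0.4.4 as tools, with no roles. Neither annotation nor strand setting is stated in the sources used here, and reads of overlapping genes or near-identical paralogs may be lost or mixed. Columns were matched to samples by title. Genes held 69.4% to 71.2% of the counted reads per library; the 5 entries that name no gene held the rest and were left out.

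The test was that of edgeR 4.0.16 (R 4.3.3): TMM, filterByExpr (minimum count 10, minimum total 15; 11731 genes kept), quasi-likelihood F test with group as the only term, two-sided, Benjamini-Hochberg adjustment over all genes tested and a threshold of 0.05. SE is the absolute log2 fold change over the square root of F. CPM is on the total of gene reads, given as mean ± SD of 3 libraries. The procedure was tested on simulated data with 200 changed genes and the same spread for every gene. That does not cover the uneven spread among genes and libraries of the real data. Exon lengths came from GENCODE M21. Alternatives used limma-voom (limma 3.58.1), DESeq2 1.42.0, other scalings and filters, a replicate block and each library left out.

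Members and lists were chosen with earlier results of these data known. Every member is named. Values by library are given for those past the test and the 2-fold limit, and for the most abundant of each role. Of each other pathway list the 2 largest changes are named, plus Gnas, Ptger2, Ptger4 and Crebbp. Further pathway genes were named after their values were seen. The printed promoter windows were also chosen then, because no member past the 2-fold limit that had a window held the full element. No permutation test of single genes was run, since 3 against 3 libraries cannot go below 0.1.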

Additional observations from a re-analysis of the deposited data

How the results depend on the processing

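The member counts, 15 higher and 11 lower, ran from 13 to 16 and from 10 to 13 when each library was left out in turn, and from 13 to 16 and from 11 to 13 under the other settings. All tested genes, 3851 higher and 3660 lower, ran over 3488 to 3971 and 3241 to 3768 with a library left out, and the other pathway genes, 35 and 16, over 32 to 38 and 15 to 17. Under the other settings all tested genes ran over 3257 to 3894 and 3572 to 4318, with more lower than higher genes under upper quartile scaling (3257 and 4318), and the other pathway genes over 32 to 40 and 16 to 20. Upper quartile scaling lowered the median of all genes by 0.12 (log2 shift -0.117), giving 13 members higher and 13 lower, and called Creb3l1 (-0.66). Pde1b was called with RLE size factors (-0.57), upper quartile scaling (-0.68), a filter of 1 CPM in 3 libraries (-0.57) and limma-voom (-0.61). Without a filter 3 more members were called, Creb5 higher and Pde4c and Pde10a lower. Of 671 comparisons of 48 genes, 643 kept direction and call, 13 lost the call, 7 gained one and 8 turned sign. With each library left out, Creb3 ran from -0.058 to 0.059 (above 0 without GM-CSF replicate 2, 0.054, and control replicate 1), Gnas from -0.07 to 0.007 (above 0 without control replicate 2) and Ptger4 from -0.114 to 0.198 (below 0 without GM-CSF replicate 2, -0.004, control replicate 2, and control replicate 3, -0.042). Ptger4 was also below 0 with upper quartile scaling (-0.106) and without a filter (-0.002). None of these values passed the test. The cause was not tested. Replicate numbers are not stated to pair the libraries. Correlations of deviations were 0.0082 to 0.0653 for same-numbered libraries and -0.0446 to 0.0252 for the others. With 3 libraries a group these cannot decide whether libraries were paired. A fit with the replicate block gave 15 members higher and 11 lower. Depth limits the 21 members with at most 48 reads in all, for which changes were not detectable unless very large.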
